A study of Homo sapiens with 12 samples.

Results

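The interferon-stimulated genes are the genes a cell switches on when interferon signals through its receptors. They were chosen as a list of 47 gene symbols, without genes grouped separately as sensors of foreign RNA or DNA or as antigen presentation genes. IFI16, a DNA-binding protein, and the oligoadenylate synthetases were kept in the list. Each member was read on the brightest row of the array table that carried its symbol, alone or among several. Of the 47 members, 46 had a row, out of 18417 genes measured, and STAT2 was not analysed here. The row used for SP100 also carried the symbols CTCFL and HMGB1, so its values cannot be assigned to SP100 alone.

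Type I interferons bind receptors that activate the kinases JAK1 and TYK2, which phosphorylate STAT proteins. A factor that contains IRF9 then binds the interferon-stimulated response element (ISRE), and interferon gamma acts through another motif, the gamma-activated site (GAS). The products include enzymes that degrade viral RNA, proteins that block viral entry, ubiquitin-like modifiers and feedback inhibitors, and in cancer cells the same genes are known to respond to DNA-demethylating drugs such as decitabine. K562 is an erythroleukaemic cell line from chronic myeloid leukaemia that is known to have lost its cluster of type I interferon genes.

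The study measured total RNA on Affymetrix expression arrays in K562 cells (KS) and in K562/ADR cells (KA), a subline made multidrug resistant with adriamycin and kept in 50 nM adriamycin. Each line was untreated or given decitabine (DAC), an inhibitor of DNA methylation, at 5 nM for 72 hours, and each of the 4 groups held 3 arrays. The comparisons ask what decitabine does in each line, how the lines differ with and without it, and whether the response differs between them. KA is 1 selected subline, so a difference between the lines cannot be told apart from other differences that arose while it was selected or kept in adriamycin. The labels do not say that the 3 arrays of a group came from separate cultures, so p-values measure the spread between these arrays, which may be technical. They also do not say whether KA was kept in adriamycin during treatment. In bulk RNA, fewer cells expressing a gene and less RNA per cell cannot be told apart.

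Values are log2 intensities as deposited, differences are given on the log2 scale with standard errors (SE), and a gene is called when its adjusted p from limma, a linear model fitted across all genes, is under 0.05. A level at or below 3.39, the highest lower quartile of any array, was taken as background, and a change that starts or ends there is a lower bound. Arrays of a group correlated at 0.990 to 0.995 over all genes. All 7 measured erythroid markers were above background in every group. So were 4 of 5 lymphoid, 4 of 5 epithelial and 4 of 6 monocyte and macrophage markers. The same held for 2 of 3 dendritic and 5 of 7 fibroblast and endothelial markers, so this cut does not test the K562 label. Nor does a level above it show by itself that a gene is expressed. The third untreated KS array stood apart for these genes: over the 10 members called higher in KS by at least 0.5, its mean level was 6.21, against 5.85 and 5.74 on the other untreated KS arrays and 6.74 to 6.95 on the treated ones.

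Decitabine raised a set of interferon-stimulated genes in both lines. In KS, 15 of 46 members were higher and 4 lower, 41.3% called against 30.3% of all genes (32.6% higher against 14.6%, 8.70% lower against 15.8%), and the members' median change was 0.12 against -0.0066 over all genes. In KA, 14 were higher and 1 lower, 32.6% called against 14.6% of all genes (30.4% higher against 9.67%, 2.17% lower against 4.97%), with a median of 0.06 against -0.019. The 10 members called higher in both lines were IRF1, IRF9, CMPK2, PARP12, PARP14, DTX3L, TRIM22, IFI6, IFI35 and LGALS3BP. In KS the TRIM22 means, 2.86 and 3.35, were both below background, so that call cannot be read as a rise in expression. RSAD2, UBE2L6, USP18, OAS3 and IFI27 were called higher in KS and not in KA, and IFI16, IFITM2, IFITM3 and TRIM25 in KA and not in KS. The row shared by SP100 was called lower in both lines, IFITM1, OAS1 and IFI44 were lower in KS, and 23 members were called in neither line.

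**Figure D1:**
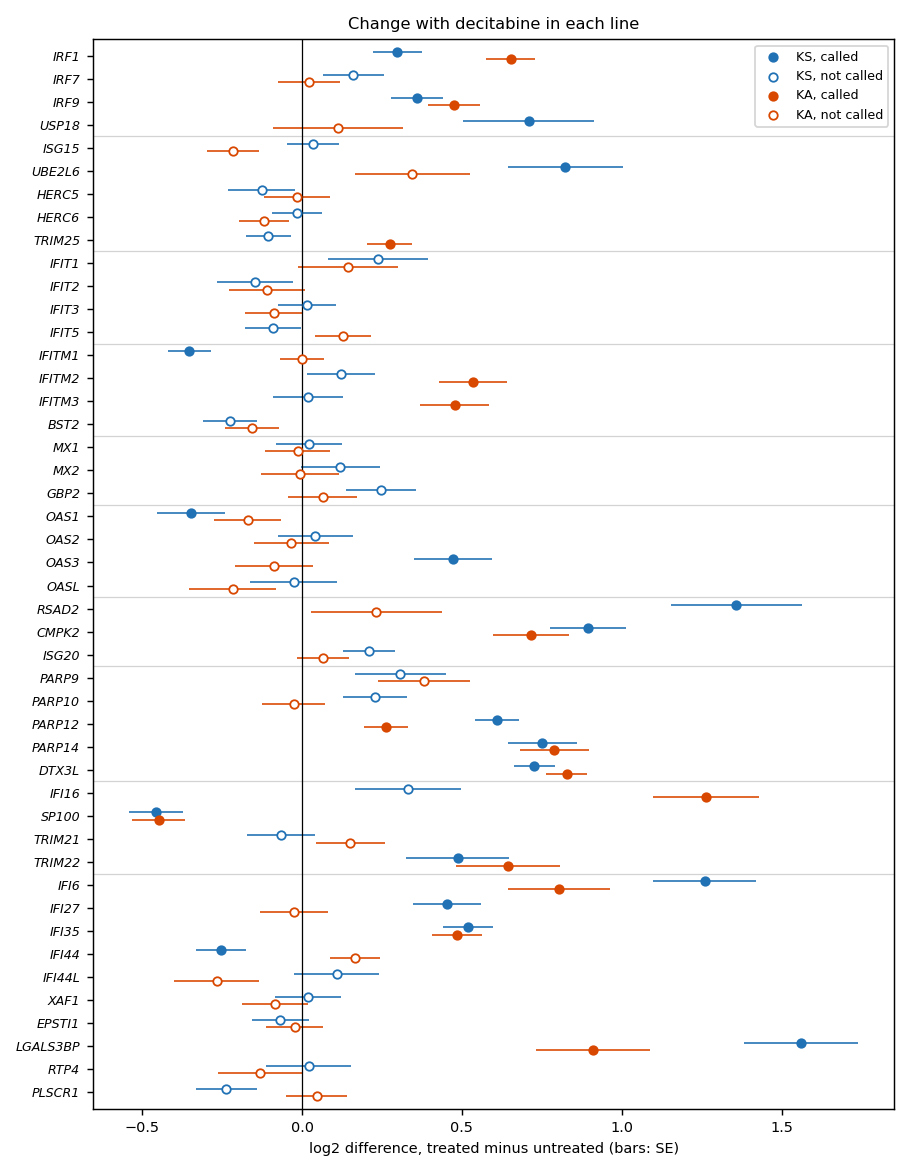
Change with decitabine (horizontal axis, log2, treated minus untreated, bars ± SE) for the 46 measured members, 1 row a gene in the order of their roles, KS in blue and KA in orange, filled where called; SP100 is its shared row. LGALS3BP (1.56), RSAD2 (1.36) and IFI6 (1.26) lie farthest right in KS, IFI16 (1.26) in KA, and the IFIT rows lie near 0 in both lines.

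Between the untreated lines, 2 members were higher in KA and 11 lower, 28.3% called against 25.7% of all genes (4.35% higher against 11.6%, 23.9% lower against 14.1%), with a median of -0.06 against 0.015. The share called was close to that of all genes. The lower members were IRF1, TRIM25, IFITM2, IFITM3, CMPK2, PARP9, PARP14, DTX3L, IFI35, IFI44 and the row shared by SP100, and MX2 and TRIM21 were higher. Between the treated lines, 3 were higher (MX2, TRIM21, IFI16) and 14 lower, 37% called against 27% of all genes (6.52% higher against 15.1%, 30.4% lower against 12%), with a median of -0.13 against -0.0015. Of the members lower in KA, 9 were called with and without decitabine, IFITM2 and IFI44 were called in the untreated and not in the treated comparison, and RSAD2, OAS3, PARP12, IFI27 and LGALS3BP in the treated and not in the untreated one. By the test of the difference itself, RSAD2 and IFI44 were called, and IFITM2, OAS3, PARP12, IFI27 and LGALS3BP were not (adjusted p = 0.128, 0.0712, 0.0528, 0.0781 and 0.145). Each comparison between the lines shares arrays with both decitabine comparisons, so those counts are not independent.

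**Figure D2:**
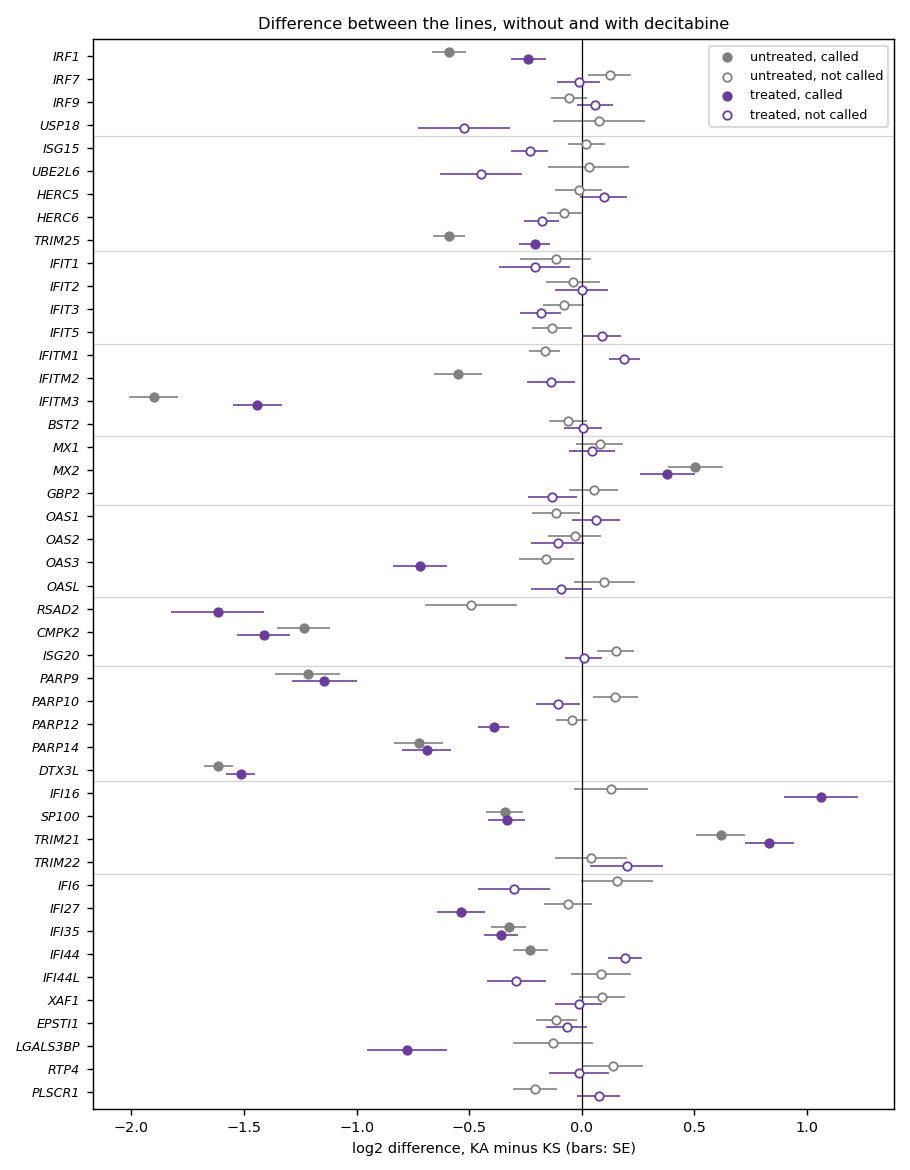
Difference between the lines (horizontal axis, log2, KA minus KS, bars ± SE) for the 46 measured members, 1 row a gene, untreated in grey and with decitabine in purple, filled where called; SP100 is its shared row. IFITM3, DTX3L, CMPK2 and PARP9 lie far left in both colours, RSAD2 at -0.49 untreated and -1.62 treated, and IFI16 at 0.13 and 1.06.

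Decitabine blocks the upkeep of methylation at CG dinucleotides, and interferon acts through short promoter motifs, so the promoter letters are shown for the 6 members with the largest called changes with decitabine. Windows of 300 bases (250 before to 50 after a RefSeq transcript start, GRCh38.p14) were searched on both strands for the ISRE core (GAAA, any 2 bases, GAAA) and for the GAS motif (TTC, any 3 bases, GAA), where overlapping matches were counted separately. Each window is read 5′ to 3′ along its gene's strand, and capitals mark a match to the ISRE core on either strand. Where a gene had several windows, one with a match is shown, otherwise the one with most CG dinucleotides. The windows lie at chr17:78979874-78980173 (minus strand), chr2:6877527-6877826 (plus), chr1:159009657-159009956 (plus), chr1:27672143-27672442 (minus), chr2:6865770-6866069 (minus) and chr3:122564088-122564387 (plus).
LGALS3BP: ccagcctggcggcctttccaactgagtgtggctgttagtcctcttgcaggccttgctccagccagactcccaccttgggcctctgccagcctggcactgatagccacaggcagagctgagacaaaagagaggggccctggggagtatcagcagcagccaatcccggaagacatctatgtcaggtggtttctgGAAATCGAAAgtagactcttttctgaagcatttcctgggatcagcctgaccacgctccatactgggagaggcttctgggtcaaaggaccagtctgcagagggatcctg
RSAD2: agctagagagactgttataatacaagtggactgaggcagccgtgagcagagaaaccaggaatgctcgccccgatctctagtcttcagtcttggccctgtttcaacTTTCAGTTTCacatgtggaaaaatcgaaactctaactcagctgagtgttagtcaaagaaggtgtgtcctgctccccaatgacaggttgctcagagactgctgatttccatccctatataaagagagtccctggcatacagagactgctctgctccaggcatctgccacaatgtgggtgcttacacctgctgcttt
IFI16: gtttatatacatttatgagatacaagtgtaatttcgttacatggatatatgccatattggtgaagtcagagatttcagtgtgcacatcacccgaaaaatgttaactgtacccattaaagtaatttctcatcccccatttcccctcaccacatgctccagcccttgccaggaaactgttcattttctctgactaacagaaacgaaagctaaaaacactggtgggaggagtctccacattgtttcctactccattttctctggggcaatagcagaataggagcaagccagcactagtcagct
IFI6: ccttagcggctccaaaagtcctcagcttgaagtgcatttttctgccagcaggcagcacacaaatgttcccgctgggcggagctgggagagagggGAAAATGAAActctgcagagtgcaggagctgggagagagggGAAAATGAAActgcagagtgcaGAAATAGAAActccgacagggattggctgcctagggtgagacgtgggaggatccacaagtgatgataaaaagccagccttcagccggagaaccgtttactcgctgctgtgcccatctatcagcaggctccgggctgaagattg
CMPK2: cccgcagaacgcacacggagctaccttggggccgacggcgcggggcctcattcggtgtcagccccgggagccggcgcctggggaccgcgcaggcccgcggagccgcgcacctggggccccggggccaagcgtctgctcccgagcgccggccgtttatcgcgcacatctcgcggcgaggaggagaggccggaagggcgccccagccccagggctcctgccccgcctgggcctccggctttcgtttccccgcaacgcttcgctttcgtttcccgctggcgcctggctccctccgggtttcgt
DTX3L: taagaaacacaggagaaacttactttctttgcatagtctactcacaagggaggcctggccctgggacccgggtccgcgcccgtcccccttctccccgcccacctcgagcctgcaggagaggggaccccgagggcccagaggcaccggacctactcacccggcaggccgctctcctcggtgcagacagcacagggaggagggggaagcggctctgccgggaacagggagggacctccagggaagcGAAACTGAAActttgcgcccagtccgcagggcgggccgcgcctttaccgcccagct

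The ISRE core was present once in the windows of LGALS3BP, RSAD2 and DTX3L and 3 times in that of IFI6, and it was not in the windows searched for IFI16 and CMPK2. The CMPK2 window printed holds 41 CG dinucleotides and that of IFI16 holds 3. CMPK2 and RSAD2 lie head to head on chromosome 2, and a second RSAD2 window shares 165 bases with that of CMPK2. DTX3L and PARP9 also start from shared DNA, with 137 bases in common, and the match at chr3:122564332-122564341 begins 6 bases before the DTX3L start and runs across it, and begins 41 bases before the start of PARP9 on the other strand. These members are therefore not independent in sequence.

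A window was found for 36 of the 46 measured members (37 of 47 listed), and 25 of the 36 held the ISRE core in at least 1 window, against 4.38% of 27305 genes (3.57% of 35116 windows). GAS was present in 11 of 36, against 9.38% of genes (7.66% of windows). Among the 16 of these members called higher with decitabine in a line, 9 held the ISRE core and 5 held GAS. Among the 20 not called higher in either line, 16 held the ISRE core and 6 held GAS. The lack of a call does not show that a member did not rise, and at background a rise cannot be read. Of these 20, 10 were above background in no group, where 9 held the ISRE core, and 10 were above it in at least 1 group, where 7 held it. The median of the highest CG count of a member was 19.5 in the 16 called higher and 7.5 in the 20 not called higher. This takes the richest window where a gene had several, and windows of a gene differed widely. CMPK2 ran from 2 to 41 and RSAD2 from 4 to 45, in partly shared DNA. Among those not called higher, MX1, at background, ran from 6 to 30. PARP9, with changes of 0.31 in KS and 0.38 in KA that were not called, ran from 6 to 29. The difference between the sets was not tested. By another measure, the first window of a gene, the median was 8 over members and 14 over all genes. A match says only that the letters are there, and methylation was not measured.

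**Figure D3:**
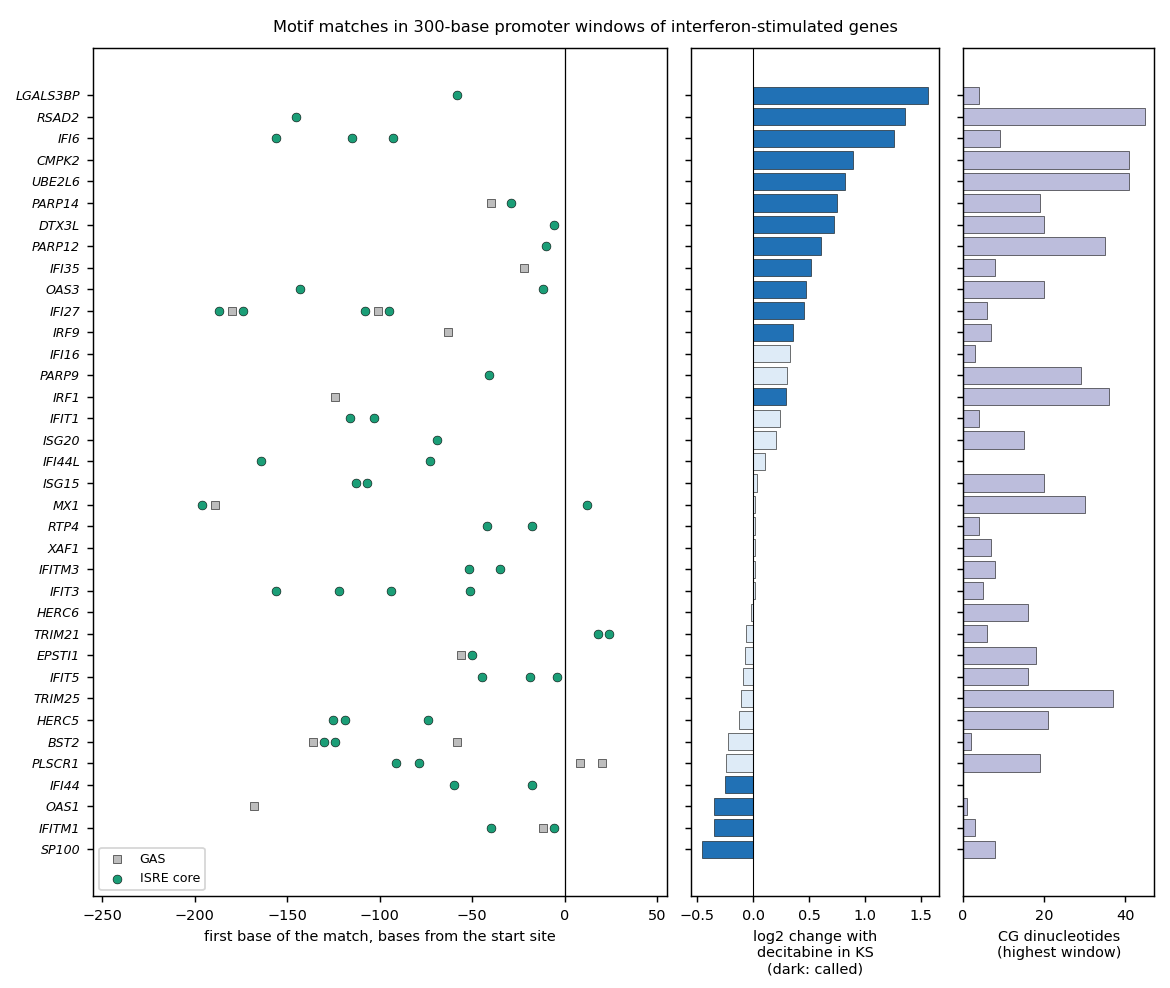
First base of each motif match in bases from the start site (left, circles for the ISRE core, squares for GAS), log2 change with decitabine in KS (middle, dark where called, SP100 by its shared row) and the highest CG count of a window (right) for the 36 measured members with a window. A site that lies in 2 windows of a gene appears at its distance from each start, and both members called higher with decitabine and members not called higher carry matches.

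Most of the ligands were at background. Of 21 interferon genes listed, 16 had a row, and 13 of these (IFNB1, IFNG and the type I genes among them) did not exceed background in any group. Only the lambda interferons IFNL1, IFNL2 and IFNL3 did, at group means from 4.61 (IFNL1, treated KA) to 6.91 (IFNL3, untreated KA), and none was called in any comparison. The lymphoid marker CD79A also passed this cut, at group means from 4.73 to 4.82, so passing it does not by itself show that these genes are expressed. IFNL2 and IFNL3 are near-identical copies, so signal may be shared between their rows. The single call among ligands was IFNA6 in KS, -0.33 ± 0.11 (adjusted p = 0.0405), at levels of 2.96 and 2.63, both below background. That is 6.25% of the 16 called in KS, against 30.3% of all genes.

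The 23 receptors and signalling proteins measured exceeded background in at least 1 group. Decitabine raised 8 and lowered 3 of them in KS (47.8% called against 30.3% of all genes), and raised 4 and lowered 1 in KA (21.7% against 14.6%). The receptor subunit IFNAR2 rose by 0.53 ± 0.07 in KS and 0.28 ± 0.07 in KA. The kinase JAK1, the factor IRF2 and the phosphatase PTPN6 also rose in both lines, by 0.21, 0.59 and 0.62 in KS and by 0.25, 0.41 and 0.55 in KA. PTPN11, another phosphatase, fell in both, at -0.52 and -0.26. In KS the receptor subunits IFNGR2 (0.47) and IL10RB (0.37) and the signalling inhibitor PIAS1 (0.29) rose too, and TYK2 (-0.30) and the factor IRF3 (-0.37) fell. SOCS1, the feedback inhibitor of JAK kinases, read 5.50, 5.63 and 6.06 on untreated and 6.74, 6.72 and 6.75 on treated KS arrays. Its rise of 1.01 ± 0.12 in KS (adjusted p = 4.59e-05) stood against 0.06 ± 0.12 in KA, a difference of -0.94 ± 0.17 (adjusted p = 0.00901). TYK2 and IRF3 also differed in response, by 0.43 ± 0.10 and 0.51 ± 0.09, KA minus KS. These 3 were the only calls of the 23 in the difference of responses (13% against 6.74% of all genes). How far they depend on single arrays is not given here. Between the untreated lines, IFNGR1 (0.46), JAK1 (0.46) and SOCS3 (0.52) were higher in KA and IRF2 (-0.43), IRF3 (-0.50) and the kinase IKBKE (-0.37) lower (26.1% called against 25.7% of all genes). With decitabine, 3 were higher in KA and 6 lower (39.1% against 27%).

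Markers of other cell types were read for the same arrays. Of 6 monocyte and macrophage markers, LYZ, lysozyme, rose by 2.61 ± 0.34 in KS and 1.77 ± 0.34 in KA, and ITGAM (0.35) and FCGR3A (0.48, at background) rose in KS. So 50% of the list was called higher in KS and 16.7% in KA, against 14.6% and 9.67% of all genes. CD14 and CSF1R, which define the lineage, lay at 4.20 to 4.49 and were not called, and CD163 was at background. The mean of the list per array lay between 4.24 and 4.71 in untreated and 4.95 and 5.04 in treated KS. In KA it lay between 4.27 and 4.35 untreated and 4.52 and 4.61 treated. LYZ read 7.77, 7.86 and 9.57 on the 3 untreated KS arrays, highest on the third. None of 5 lymphoid or 3 dendritic markers was called in any comparison, against 6.74% to 30.3% of all genes over the comparisons. In the decitabine comparisons COL1A1, a fibroblast collagen, rose in both lines (0.52 and 0.32), and of 5 epithelial markers EPCAM fell in KS (-0.19). Between the untreated lines, LYZ (-1.20) and the endothelial PECAM1 (-0.33) were lower in KA. The erythroid TAL1 (0.65), LMO2 (0.27) and HBE1 (0.25), the keratins KRT8 (0.32) and KRT19 (0.56) and COL1A1 (0.26) were higher. Between the treated lines, LYZ (-2.03) and ITGAM (-0.44) were lower in KA, and TAL1 (0.33), KRT8 (0.21), KRT18 (0.36) and KRT19 (0.64) higher. Of the 7 erythroid markers, 4 rose in KS, by 0.18 to 0.38 (57.1%, against 14.6% of all genes called higher there). None was called with decitabine in KA, where 14.6% of all genes were called in either direction. The part of these markers in the results was not tested.

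Among the members that control transcription or feedback, 4 of 5 were measured, and 3 (75%) were called higher with decitabine in KS and 2 (50%) in KA, against 14.6% and 9.67% of all genes. IRF1, a transcription factor that activates interferon-stimulated genes, read 5.20, 5.25 and 5.09 on untreated and 5.58, 5.50 and 5.35 on treated KS arrays. In KA it read 4.59, 4.56 and 4.61 untreated and 5.17, 5.31 and 5.24 treated. Untreated and treated arrays did not overlap in either line, and untreated KA lay below every other array. The rise was 0.65 ± 0.08 in KA (adjusted p = 0.000255) and 0.30 ± 0.08 in KS (adjusted p = 0.00874), and KA was below KS, with differences of -0.59 ± 0.08 untreated and -0.24 ± 0.08 treated. The call in KS was lost without untreated KS array 3 and treated KS array 1 together (adjusted p = 0.0942), and the treated difference was lost under 10 of 23 alternatives.

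IRF9, the DNA-binding subunit of the ISRE-binding factor, rose from 5.77 ± 0.08 to 6.13 ± 0.08 in KS and from 5.71 ± 0.05 to 6.18 ± 0.14 in KA (mean ± SD, n = 3), by 0.36 ± 0.08 and 0.48 ± 0.08 (adjusted p = 0.0043 and 0.00231). IRF7, which amplifies interferon production, was not called, at 0.16 and 0.02. USP18, which removes ISG15 from proteins and damps receptor signalling, read 4.30, 3.86 and 4.27 on untreated and 4.36, 4.78 and 5.40 on treated KS arrays. The KA arrays gave 4.40, 4.13 and 4.12 untreated and 4.41, 4.32 and 4.25 treated. Treated KS lay above untreated KS, with a wide spread, and the KA groups overlapped. The rise in KS was 0.71 ± 0.20 (adjusted p = 0.0179), and it was 0.43 and not called without treated KS array 3, and not called without untreated KS array 2. In KA the change was 0.11 ± 0.20 (adjusted p = 0.766). A second, dimmer row that USP18 shares with USP41P moved from 3.74 to 5.03 in KS, by 1.29 ± 0.11 (adjusted p = 6.9e-05 over all rows), and from 3.66 to 3.87 in KA. On that row the responses differed by -1.08 ± 0.16 (adjusted p = 0.0114 over all rows), and the near-identical copy cannot be separated.

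Of the 5 proteins of ISG15 conjugation, 1 (20%) was called higher with decitabine in each line, against 14.6% of all genes in KS and 9.67% in KA. UBE2L6, the enzyme that passes ISG15 on, read 5.94, 5.96 and 6.72 on untreated and 6.93, 7.32 and 6.84 on treated KS arrays. Its KA values were 6.29, 6.21 and 6.21 without and 6.48, 6.73 and 6.54 with decitabine. The third untreated KS array lay close to the treated ones, yet no groups within a line overlapped. The rise in KS was 0.82 ± 0.18 (adjusted p = 0.00345) and the change in KA 0.35 ± 0.18 (adjusted p = 0.233). TRIM25, a ubiquitin ligase that acts with the RNA sensor RIG-I, read 8.41, 8.27 and 8.32 on untreated and 8.23, 8.24 and 8.21 on treated KS arrays. Untreated KA arrays read 7.72, 7.71 and 7.80, and treated ones 7.93, 7.99 and 8.13. It was lower in untreated KA, with a difference of -0.59 ± 0.07 (adjusted p = 4.07e-05), and rose with decitabine in KA by 0.27 ± 0.07 (adjusted p = 0.0206). That rise was not called without untreated KA array 1 or 2 or treated KA array 3, and the treated difference of -0.21 was lost under 12 of 23 alternatives. ISG15, the modifier itself, stayed between 5.14 and 5.37 as group means and was not called. The ligase HERC5 and its relative HERC6 were at background in every group.

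All 4 IFIT genes, whose products bind foreign RNA, lay at background, with group means from 1.70 (IFIT5, untreated KA) to 2.98 (IFIT3, treated KS). None was called in any comparison. At this level a change that stays below background cannot be read as one of expression.

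The IFITM proteins sit in membranes and block viral entry, and IFITM3 was the member that differed most between the untreated lines. It read 8.25, 8.18 and 8.21 on untreated and 8.21, 8.16 and 8.33 on treated KS arrays. On KA arrays the values were 6.15, 6.30 and 6.48 before and 6.83, 6.55 and 6.98 after treatment. Every KA array lay below every KS array, and the KA groups did not overlap. The untreated lines differed by -1.90 ± 0.11, 3.74-fold (adjusted p = 4.55e-08), and the treated lines by -1.44 ± 0.11 (adjusted p = 5.61e-07). Decitabine raised it in KA by 0.48 ± 0.11 (adjusted p = 0.0114), a call lost without untreated KA array 1 or treated KA array 3 (adjusted p up to 0.0530), and the change in KS was 0.02 ± 0.11.

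IFITM2 read 7.79, 7.74 and 8.05 on untreated and 7.97, 7.97 and 8.01 on treated KS arrays. In KA it read 7.32, 7.14 and 7.47 untreated and 7.81, 7.70 and 8.02 treated. Untreated KA was the lowest group and did not overlap the others. The difference from untreated KS was -0.55 ± 0.11, and it rose in KA by 0.54 ± 0.11 (adjusted p = 0.00186 and 0.00576), and the treated lines differed by -0.14 ± 0.11, which was not called. IFITM1, at 11.20 ± 0.04 (mean ± SD) in untreated KS, fell in KS, with a change of -0.35 ± 0.07 (adjusted p = 0.00154) and changed by 0.00 ± 0.07 in KA. The 3 IFITM genes adjoin on chromosome 11 and are closely similar in coding sequence, so their rows may share signal. BST2, which tethers virions to the cell, was not called, at -0.22 and -0.16.

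Of the antiviral GTPases, MX1 and GBP2 were at background in every group. MX2, a nuclear-envelope GTPase, read 3.54, 3.48 and 3.48 on untreated KS and 4.02, 4.08 and 3.91 on untreated KA arrays. With decitabine it read 3.37, 3.55 and 3.95 in KS and 4.04, 4.10 and 3.86 in KA. KA was higher by 0.50 ± 0.12 untreated (adjusted p = 0.00776), with no overlap, and by 0.38 ± 0.12 treated (adjusted p = 0.0351), with overlap. The treated difference was lost under 8 of 23 alternatives.

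The oligoadenylate synthetases make the messenger that activates RNase L. OAS3 read 4.17, 4.09 and 4.41 on untreated and 4.70, 4.72 and 4.66 on treated KS arrays. The KA arrays gave 4.33, 3.98 and 3.87 untreated and 4.14, 3.94 and 3.83 treated. The treated KS arrays lay above all others, and the KA groups overlapped. OAS3 rose in KS by 0.47 ± 0.12 (adjusted p = 0.00944) and changed by -0.09 ± 0.12 in KA, and treated KA was below treated KS, with a difference of -0.72 ± 0.12 (adjusted p = 0.000591). OAS1 fell in KS, with a change of -0.35 ± 0.11 (adjusted p = 0.024), and the call was lost without untreated KS array 1 or 3 or treated KS array 1 or 3. OAS2 was at background, and OASL, a relative without the enzyme activity, was not called.

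RSAD2, viperin, makes a nucleotide that ends viral RNA chains. It read 3.60, 3.22 and 4.28 on untreated and 4.88, 5.07 and 5.22 on treated KS arrays. Its KA values were 3.18, 3.23 and 3.21 without and 3.67, 3.21 and 3.43 with decitabine. Treated KS lay above all other arrays, untreated KS spanned a wide range with the third array highest, and the KA groups, at or near background, overlapped. The rise in KS was 1.36 ± 0.20, 2.57-fold (adjusted p = 0.000257), against 0.23 ± 0.20 in KA (adjusted p = 0.5), and treated KA was lower than treated KS, with a difference of -1.62 ± 0.20 (adjusted p = 6.06e-05).

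CMPK2, the mitochondrial nucleotide kinase encoded head to head with RSAD2, read 6.69, 6.65 and 7.02 on untreated and 7.65, 7.61 and 7.79 on treated KS arrays. Untreated KA arrays read 5.32, 5.76 and 5.58, and treated ones 6.19, 6.33 and 6.28. None of the 4 groups overlapped, and treated KA stayed below untreated KS. It rose by 0.89 ± 0.12 in KS and 0.72 ± 0.12 in KA (adjusted p = 9.88e-05 and 0.00186). KA was lower, with differences of -1.24 ± 0.12 untreated and -1.41 ± 0.12 treated (adjusted p = 6.06e-06 and 1.48e-06). The exonuclease ISG20 was not called, at 0.21 in KS and 0.06 in KA.

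Of the 5 proteins of ADP-ribosylation, PARP12, PARP14 and DTX3L were called higher with decitabine in both lines (60%, against 14.6% of all genes in KS and 9.67% in KA). DTX3L, a ubiquitin ligase that pairs with PARP9, read 5.94, 5.96 and 6.05 on untreated and 6.69, 6.72 and 6.71 on treated KS arrays. On KA arrays the values were 4.37, 4.37 and 4.35 before and 5.24, 5.11 and 5.23 after treatment. The 4 groups did not overlap, and the arrays of each group lay close together. It rose by 0.73 ± 0.06 in KS and 0.83 ± 0.06 in KA, and KA was lower, with differences of -1.62 ± 0.06, 3.06-fold, untreated (adjusted p = 1.59e-09) and -1.51 ± 0.06 treated (adjusted p = 2.8e-09). The difference between the 2 responses was 0.10 ± 0.09, with a 95% interval of -0.10 to 0.30.

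PARP9 read 4.51, 4.14 and 4.50 on untreated and 4.78, 4.54 and 4.75 on treated KS arrays. In KA it read 3.22, 3.44 and 2.84 untreated and 3.45, 3.54 and 3.66 treated. All KA arrays lay below all KS arrays, and the untreated KA mean was below background. Its untreated difference between the lines, a lower bound in size, was -1.22 ± 0.14 (adjusted p = 3.53e-05), and the treated one was -1.14 ± 0.14. Its changes with decitabine of 0.31 ± 0.14 in KS and 0.38 ± 0.14 in KA were not called (adjusted p = 0.131 and 0.0953).

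PARP14, a mono-ADP-ribosyltransferase, read 6.27, 6.19 and 6.54 on untreated and 7.07, 7.04 and 7.14 on treated KS arrays. The KA arrays gave 5.46, 5.53 and 5.82 untreated and 6.50, 6.30 and 6.39 treated. Treated arrays lay above untreated ones in each line, and treated KA overlapped untreated KS. The rise was 0.75 ± 0.11 in KS and 0.79 ± 0.11 in KA (adjusted p = 0.000186 and 0.000666), and KA was lower, with differences of -0.73 ± 0.11 untreated and -0.69 ± 0.11 treated. PARP12, an enzyme of the same kind, read 7.75, 7.73 and 7.79 on untreated and 8.26, 8.42 and 8.42 on treated KS arrays. Its KA values were 7.64, 7.78 and 7.72 without and 7.97, 7.93 and 8.02 with decitabine. It rose by 0.61 ± 0.07 in KS (adjusted p = 3.4e-05) and 0.26 ± 0.07 in KA (adjusted p = 0.0234). The rise in KA was not called without untreated KA array 1 or 3 or treated KA array 1 or 3. PARP10 was not called, at 0.23 and -0.03.

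Of the nuclear and TRIM proteins, IFI16, a DNA-binding nuclear protein, changed most. It read 3.65, 3.07 and 3.57 on untreated and 3.87, 3.61 and 3.80 on treated KS arrays. Untreated KA arrays read 3.48, 3.60 and 3.59, and treated ones 4.59, 4.68 and 5.20. Treated KA lay above all other arrays, and the KS groups overlapped near background. The rise in KA was 1.26 ± 0.17, 2.4-fold (adjusted p = 0.00051), against 0.33 ± 0.17 in KS (adjusted p = 0.161), and treated KA was above treated KS by 1.06 ± 0.17 (adjusted p = 0.000317).

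TRIM21, a cytosolic antibody receptor and ubiquitin ligase, read 5.19, 5.32 and 5.33 on untreated KS and 5.76, 5.97 and 5.96 on untreated KA arrays. With decitabine it read 5.12, 5.27 and 5.25 in KS and 5.93, 5.90 and 6.31 in KA. Every KA array lay above every KS array, by 0.62 ± 0.11 untreated and 0.83 ± 0.11 treated (adjusted p = 0.000823 and 6.83e-05). TRIM22, an antiviral ligase, read 2.94, 2.62 and 3.02 on untreated and 3.35, 3.04 and 3.65 on treated KS arrays. On KA arrays the values were 2.87, 3.08 and 2.75 before and 3.49, 3.34 and 3.80 after treatment. Only the treated KA mean exceeded background. The called changes were 0.49 ± 0.16 in KS and 0.64 ± 0.16 in KA (adjusted p = 0.0365 and 0.0185). The call in KA was lost without untreated KA array 1 or 3 or treated KA array 3. That in KS was lost under 7 of 22 alternatives, among them without untreated KS array 1 or 2 or treated KS array 1 or 3. The row shared by SP100, a nuclear body protein, was called lower in the 4 comparisons of groups, from -0.33 to -0.46. The dimmer row that carries SP100 alone was called in none of them, and read 0.11 in KA and 0.36 between the treated lines, the opposite direction.

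Among the remaining members, LGALS3BP, a secreted glycoprotein, had the largest rise with decitabine in KS. It read 5.21, 5.43 and 6.09 on untreated and 7.04, 7.18 and 7.20 on treated KS arrays. In KA it read 5.58, 5.55 and 5.22 untreated and 6.40, 6.23 and 6.46 treated. Treated arrays lay above untreated ones in each line, with treated KS highest and the third untreated KS array above the other untreated ones. The rise was 1.56 ± 0.18, 2.95-fold, in KS (adjusted p = 3.4e-05) and 0.91 ± 0.18 in KA (adjusted p = 0.00485), and treated KA was lower than treated KS, with a difference of -0.78 ± 0.18 (adjusted p = 0.005).

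IFI6, a membrane protein that restrains cell death, read 6.18, 5.84 and 6.65 on untreated and 7.33, 7.39 and 7.72 on treated KS arrays. The KA arrays gave 6.33, 6.37 and 6.43 untreated and 7.09, 7.19 and 7.26 treated. It rose without overlap by 1.26 ± 0.16 in KS and 0.80 ± 0.16 in KA (adjusted p = 7.57e-05 and 0.00562). IFI35 read 6.61, 6.58 and 6.71 on untreated and 7.14, 7.28 and 7.03 on treated KS arrays. Its KA values were 6.33, 6.32 and 6.27 without and 6.72, 6.79 and 6.87 with decitabine. It rose by 0.52 ± 0.08 and 0.48 ± 0.08 and was lower in KA, with differences of -0.32 ± 0.08 untreated and -0.36 ± 0.08 treated.

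IFI27 read 4.57, 4.57 and 4.81 on untreated and 5.08, 5.33 and 4.90 on treated KS arrays. Untreated KA arrays read 4.61, 4.60 and 4.56, and treated ones 4.60, 4.65 and 4.44. Treated KS lay above untreated KS, while the KA groups overlapped. The rise in KS was 0.45 ± 0.11 (adjusted p = 0.00537), and treated KA was below treated KS, with a difference of -0.54 ± 0.11 (adjusted p = 0.00186). IFI44 was called in 3 comparisons at means from 1.67 to 1.93, all below background. IFI44L, EPSTI1 and RTP4 were at background in every group, and XAF1, which promotes cell death, and the scramblase PLSCR1 were above it and not called. In all, 13 members exceeded background in no group and 33 in at least 1. Some of the 33 lay near levels that lymphoid markers reached, so the cut does not show that they are expressed. CD3E had group means from 3.89 to 4.08, beside 3.84 to 3.93 for XAF1 and 3.50 to 4.01 for MX2.

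**Figure D4:**
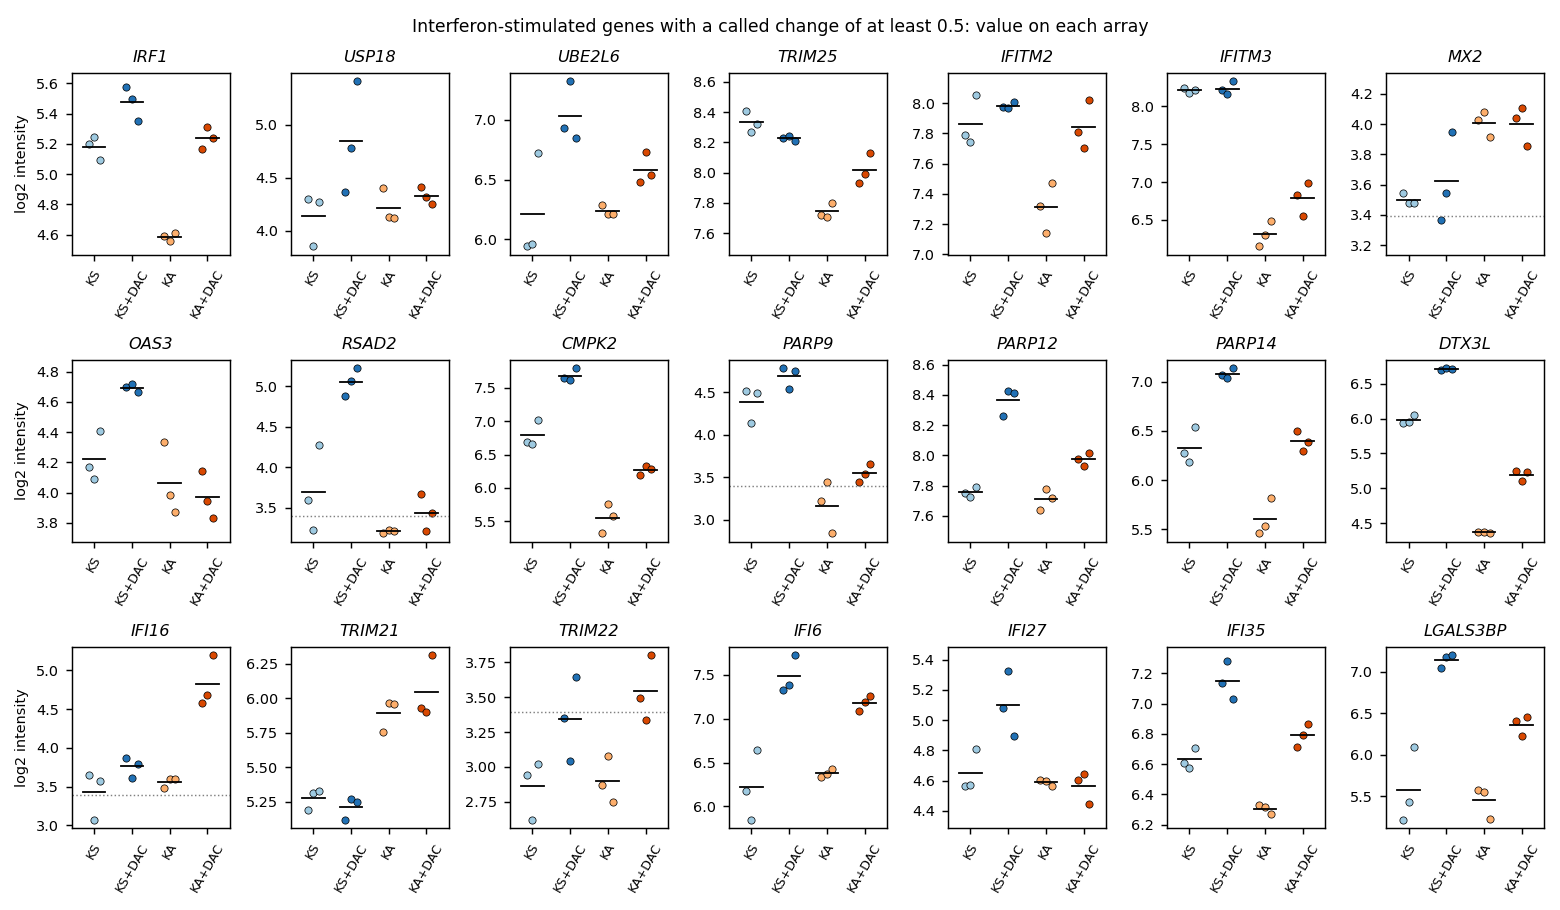
Log2 intensity on each array (points, 3 per group) and group mean (bar) for the 21 members called in a comparison with a change of at least 0.5, each panel on its own vertical scale, with a dotted line at the background level of 3.39 where it falls in range. LGALS3BP rises in both lines, RSAD2 in KS, IFI16 in KA, and IFITM3 and DTX3L are lower in KA than in KS throughout.

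The response to decitabine itself differed between the lines for 5 of 46 members, 10.9% against 6.74% of all genes. The change was more positive in KA for 4 (8.70% against 4.6%) and in KS for 1 (2.17% against 2.14%). RSAD2 differed by -1.13 ± 0.29 (KA minus KS, adjusted p = 0.0372), where the KA change starts below background and is a lower bound, so the size of the difference may be overstated, and IFI16 by 0.93 ± 0.23 (adjusted p = 0.0335). TRIM25 differed by 0.38 ± 0.10, IFITM1 by 0.35 ± 0.10 and IFI44, at background, by 0.42 ± 0.11 (adjusted p = 0.0398, 0.0476 and 0.0383). The call of RSAD2 was lost under 10 of 22 alternatives, that of IFI16 under 9 of 22 and that of TRIM25 under 13 of 22. That of IFITM1 was lost under 12 of 22 and that of IFI44 under 14 of 21. For LGALS3BP the difference was -0.65 ± 0.25 (adjusted p = 0.145) and for USP18 -0.60 ± 0.29 (adjusted p = 0.239). UBE2L6, OAS3 and IFI27, called in KS and not in KA, differed by -0.48 ± 0.26, -0.56 ± 0.17 and -0.48 ± 0.15 and were not called. IFITM3 and IFITM2, called in KA and not in KS, differed by 0.46 ± 0.15 and 0.41 ± 0.15 and were not called either (adjusted p = 0.096 and 0.128). A difference in the response of these 5 members was not shown.

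This count turned on single arrays. Without untreated KS array 3 it was 12 (7 lower in KA), against 11.1% of all genes, and the added members were IRF1, UBE2L6, OAS3, PARP12, IFI6, IFI27 and LGALS3BP. RSAD2 then differed by -1.42 (adjusted p = 0.00148) and LGALS3BP by -0.91 (adjusted p = 0.00577). It was 0 in limma without untreated KS array 1, treated KS array 2, untreated KA array 1 or untreated KA array 2, with 11, 12, 11 and 13 members at an unadjusted p under 0.05. The shares of all genes called were then 3.06%, 4.24%, 3.77% and 3.45%. Leaving out treated KS array 3 or treated KA array 3 gave 1 (3.67% and 3.86% of all genes). Without untreated KS array 2 or treated KA array 2 it was 2 (4.7% and 3.64%). Without treated KS array 1, untreated KA array 3 or treated KA array 1 it was 3 (5.89%, 4.8% and 4.21%). Thus the share over all genes, 6.74% in the main fit, also fell without any array but untreated KS array 3.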

How the data were processed

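The authors deposited log2 intensities for 12 Affymetrix arrays (33297 rows, values 0.23 to 13.2, array medians 4.96 to 5.01). Labels and headers name no normalization, and the values were used without change. Of the rows, 19460 carried 1 gene symbol in the platform annotation, 1754 several and 12083 none, and symbols were updated through RefSeq for 19429. For each gene the brightest row was kept (18417 genes). Group means were fitted with limma 3.58.1 in R 4.3.3 (lmFit and eBayes, 8 residual and 4.71 prior degrees of freedom), with Benjamini-Hochberg adjustment over all genes at 0.05. The fit was tested on simulated data. Members with a called change of at least 0.5 are given on every array, and the others by group means or ranges. The members, lists and motifs were chosen with earlier results of these data known. Arrays limit precision by their number, 3 per group. Promoters and figures used Python 3.11.15.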

Additional observations from a re-analysis of the deposited data

Results flagged for a closer look

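The decitabine response of 5 members differed between the lines by the test of the difference itself (limma, KA minus KS, adjusted over all genes). RSAD2 differed by -1.13, with 1.36 in KS and 0.23 in KA, where the untreated level (3.21) was below background, so the change in KA is a lower bound and the difference may be overstated. IFI16 differed by 0.93, with 1.26 in KA and 0.33 in KS. TRIM25 differed by 0.38 and IFITM1 by 0.35. IFI44 differed by 0.42 at levels below background. Each call was lost under some alternative settings: RSAD2 under 10 of 22, IFI16 under 9 of 22 and TRIM25 under 13 of 22. For IFITM1 it was 12 of 22 and for IFI44 14 of 21.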

How the results depend on the processing

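The counts of members called in the 4 comparisons of groups stayed within 1.5 times of 13, 15, 19 and 17 under every alternative run. The shares of all genes called were 25.7%, 14.6%, 30.3% and 27% in the main fit. Single arrays left out gave 12 to 14 members between the untreated lines and 11 to 15 for decitabine in KA. They gave 15 to 20 for decitabine in KS and 14 to 18 between the treated lines. For decitabine in KS and the treated lines, the share of all genes was 27.7% and 24.5% without treated KS array 1. Without untreated KS array 3 it was 31.4% and 28.8%. The count for the difference of responses was 5, beside 6.74% of all genes. With every row of the table tested it was 0 (12 at an unadjusted p under 0.05), beside 3% called in that fit. With the replicate number as a block it was 2 (4.25% of all genes). It was 10 without untreated KS array 3 and treated KS array 1 together (11%). With single arrays left out it was 0 to 12 (3.06% to 11.1%). Of 69 calls of single members, 47 were kept under every alternative, 20 were lost under at least 1 and 2 reversed. The reversed ones are SP100, which read 0.11 with decitabine in KA and 0.36 between the treated lines, both with rows of exactly 1 symbol and with the mean of all rows. Replicate numbers did not pair the arrays: 18 same-number pairs correlated at -0.26 to 0.19 in their deviations, and 1 of 12 arrays correlated best with its own number. Quantile normalization moved the calls over all genes for the difference of responses from 847 higher and 394 lower to 611 and 522, and those of the members from 4 and 1 to 2 and 2. The cause was not tested. Signal over background limits the 13 members at background in every group, of which IFI44 alone was called.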
